A study of Drosophila melanogaster with 3 samples.

Results

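The Hox genes of Drosophila melanogaster stand in 2 groups on chromosome arm 3R, the bithorax complex with Ubx, abd-A and Abd-B and the Antennapedia complex with lab, pb, Dfd, Scr and Antp. The regions described here are the Pita and ZIPIC binding peaks that overlapped these complexes, taken by position alone as 3R from 12480000 to 12815000 for the bithorax complex and from 2480000 to 2830000 for the Antennapedia complex on the dm3 assembly. They were 53 of 5815 listed peaks, namely 30 of 2768 Pita peaks and 23 of 3047 ZIPIC peaks. The bithorax window held 18 Pita and 13 ZIPIC peaks and the Antennapedia window 12 and 10. Chromatin came from untreated S2 cells, an embryonic Drosophila line, grown in SFX medium and cross-linked with formaldehyde. It was precipitated with anti-Pita or anti-ZIPIC antibody and sequenced as 1 library per protein, and 1 more library of input DNA without antibody served as the background for peak calling. Where DNA was short, precipitates of 1 antibody were combined before sequencing. With 1 library per protein no value below has a replicate, no test was run, and the intervals given cover counting error only. The lists hold intervals and p-values and no expression values, so the identity of the line could not be checked against marker genes, and the reads behind a peak are unknown.

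Pita and ZIPIC are zinc-finger proteins of the ZAD family, and both bind the insulator cofactor CP190. Insulators, or boundaries, are DNA elements that limit which promoters an enhancer or a silencer can act on. Hox genes encode homeodomain transcription factors that give body segments their identity, and within each complex their order along the chromosome follows the order of the segments they specify. The bithorax complex is the classical locus of boundary research. Large regulatory domains of Abd-B, each active from a given segment on, are kept apart by elements such as MCP, Fab-7 and Fab-8. Outside its segment of action a Hox gene is typically silenced by Polycomb group proteins.

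The gene table lists the names of these 3 boundaries as synonyms of Abd-B. The ChIP primers that the study listed for them are shown because they mark the ends of the fragments its PCR after ChIP amplified in this locus. Both primers of each pair are written from their own 5′ end and no part is marked by capitals.
MCP forward: cgcggccatgtattatgt
MCP reverse: tacaacgcttgggtttctc
Fab-7 forward: taagccaactggtttccaactct
Fab-7 reverse: ttgcccagggtaagtaacggtat
Fab-8 forward: tgttggtgagcaagcgaaga
Fab-8 reverse: cgaacattttttacgcgacatgt
No genome sequence was used here, so these primers were not placed on the peaks, and the peaks below are named by position and not by boundary.

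Along the bithorax complex the peaks crowded toward Abd-B. Pita had no peak in the 94.4 kb from the start of the window, which hold all of Ubx. The stretch from the window start to the upper end of abd-A, 175.8 kb, held 2 of the 18 Pita and 3 of the 13 ZIPIC peaks. The next 142.2 kb, from there to the upper end of Abd-B, held 16 and 10. Lower and upper refer here to smaller and larger dm3 positions, and gene positions are those of RefSeq moved to dm3 by the constant shift of the arm. Beyond Abd-B, in the last 17.0 kb of the window, neither protein had a peak. In the Antennapedia complex no Hox gene or interval between Hox genes held more than 3 peaks of either protein. The longest gap between sites was 69.9 kb there and 45.4 kb in the bithorax window.

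**Figure D1:**
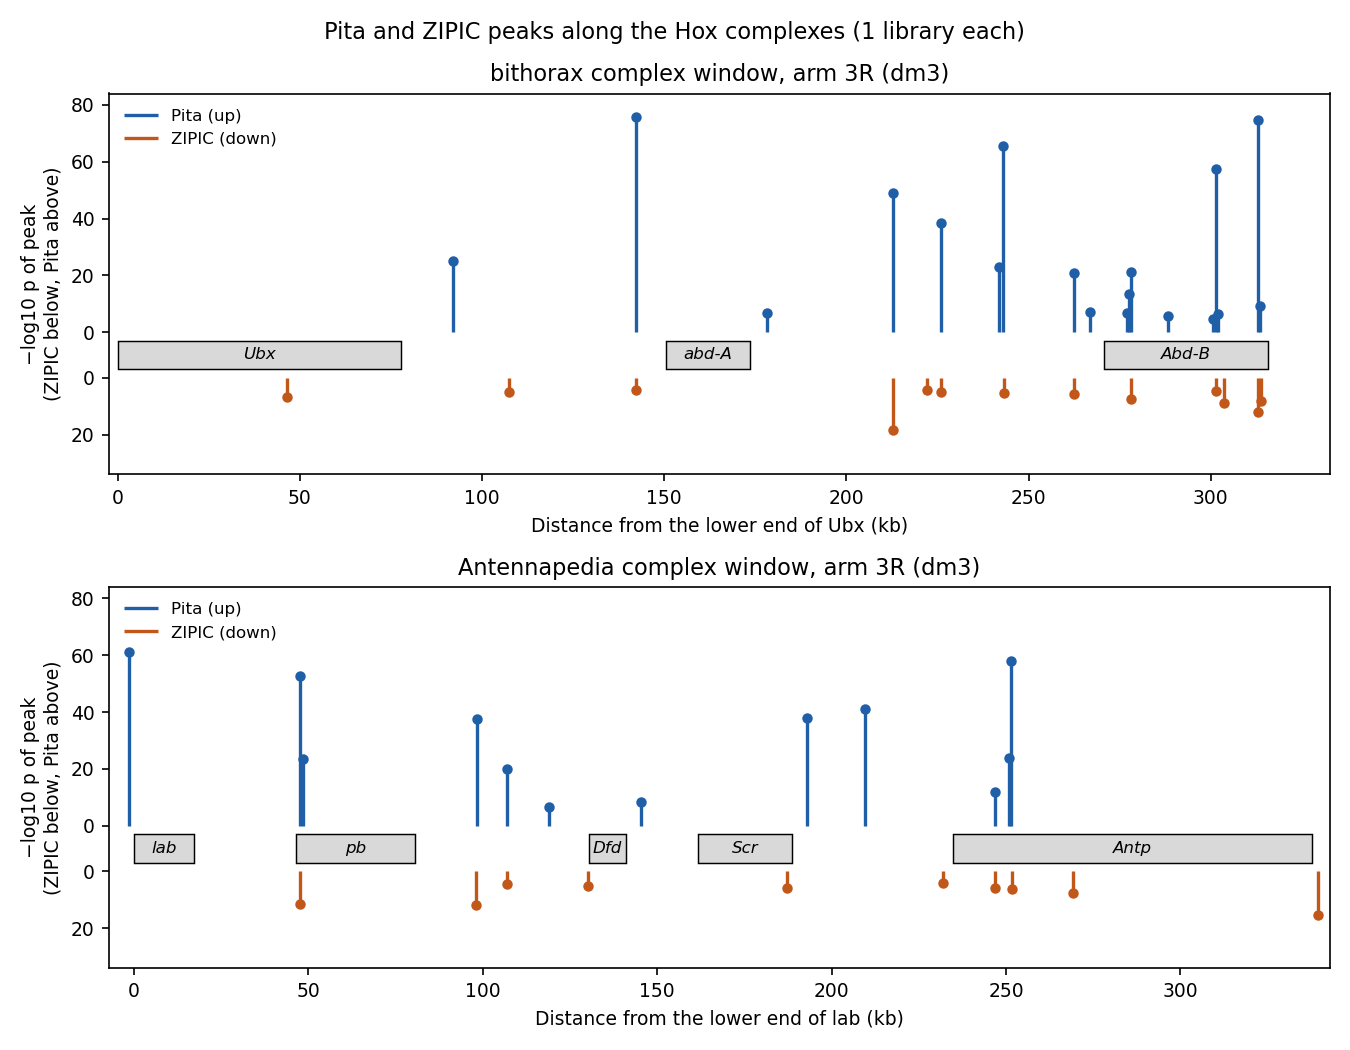
Peaks along both complexes, drawn to scale in kb from the lower end of Ubx or of lab, with Pita above and ZIPIC below and the height giving −log10 p in the peak's own list. Grey boxes are the 8 Hox genes from end to end. The tall Pita stems in the bithorax map stand between abd-A and the end of Abd-B, apart from 1 of 75.8 just below abd-A, and the highest ZIPIC stem reaches 18.4.

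Ubx, which specifies the posterior thorax and the haltere, had few peaks. No Pita peak lay in its 77.8 kb, where the exact Poisson interval of a count of 0 reaches 4.74 per 100 kb, against 2.24 over 3R. For ZIPIC the density was 1.29 per 100 kb (interval 0.0325 to 7.16), against 2.14 over 3R. Neither count thus set Ubx apart from the arm. The 1 ZIPIC peak inside it, from 12528436 to 12528923, had a −log10 p of 6.75. The nearest Pita peak was 14220 bp from the upper end of the gene, from 12574368 to 12574545 (−log10 p 25.1), and lay in the long noncoding RNA gene bxd. A weak ZIPIC peak in bxd, from 12589235 to 12590029, had 4.91, and these did not overlap. The noncoding bxd transcript comes from the regulatory region that controls Ubx.

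abd-A, which specifies the middle abdomen, held no peak of either protein in its 22.8 kb, yet the strongest Pita peak of both complexes lay close by. It ran from 12624233 to 12624694, 8242 bp from the lower end of abd-A, with a −log10 p of 75.8 and rank 79 of 2768. The ZIPIC peak inside this interval, from 12624528 to 12624677, was among the weakest of its list, with 4.35 and rank 2751 of 3047. This site thus stood near the top of the Pita list and near the bottom of the ZIPIC list. On the other side of abd-A, 4721 bp from its upper end, a Pita peak from 12660492 to 12660628 had 6.88 and no ZIPIC partner.

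The 97.2 kb between abd-A and Abd-B hold the long noncoding RNA iab8 and the coding gene MSAmiP, and carried 7 Pita and 5 ZIPIC peaks. The strongest ZIPIC peak of either complex lay here, from 12695049 to 12695358, with a −log10 p of 18.4 and rank 483. Its Pita partner, from 12695023 to 12695341, had 49.1 and rank 332, and the middles were 21.5 bp apart. This was the site where both proteins stood highest in their lists at the same time. A ZIPIC peak without partner, from 12704100 to 12704581, had 4.27. A pair followed 3.58 kb farther, with Pita from 12708188 to 12708642 at 38.4 and ZIPIC from 12708159 to 12708590 at 4.97.

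Closer to Abd-B some Pita peaks were broad or stood close together. The widest Pita interval of both complexes, 1090 bp from 12724681 to 12725770, had a −log10 p of 65.4, and its ZIPIC partner, from 12725208 to 12725789, had 5.32. A second Pita peak of 22.8, from 12724244 to 12724408, stood 0.272 kb below it and lay 661 bp from an end of the long noncoding RNA CR43617. Pita from 12744734 to 12745062 had 20.7 and ZIPIC from 12744754 to 12745043 had 5.64, with middles only 0.5 bp apart. The last Pita peak before Abd-B, from 12748959 to 12749646, had 7.17 without a ZIPIC partner and began 6 bp from an end of iab8. The small noncoding genes mir-iab-4 and mir-iab-8, which make microRNAs that repress Hox transcripts, were 12959 bp from the nearest Pita peak and 12985 bp from the nearest ZIPIC peak. The noncoding iab4 gene was 12804 and 12830 bp away.

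Abd-B, which specifies the posterior abdomen and the genitalia, carried more peaks than any other Hox gene. Its 45.0 kb held 9 Pita peaks (20.0 per 100 kb, 95% exact Poisson interval 9.14 to 37.9) and 5 ZIPIC peaks (11.1 per 100 kb, interval 3.61 to 25.9). The other 7 Hox genes held between 0 and 3 of each. With peaks of the same list within 1 kb counted once, Abd-B held 4 groups of each protein, or 8.88 per 100 kb (interval 2.42 to 22.7). The strongest in Abd-B was the Pita peak from 12795250 to 12795576, with a −log10 p of 74.5 and rank 87, whose ZIPIC partner from 12795298 to 12795525 had 12.1. Just above it stood a weaker pair, with Pita from 12795781 to 12796024 at 9.31 and ZIPIC from 12795772 to 12796284 at 8.22. This weaker pair was the nearest to an end of Abd-B, at 1934 bp for Pita and 1674 bp for ZIPIC.

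Inside Abd-B the remaining peaks formed small groups. Pita from 12783584 to 12783806 had 57.4 and rank 218 and overlapped a ZIPIC peak of 4.80, from 12783621 to 12783757. It was flanked by weak Pita peaks of 4.56, from 12782836 to 12782997, and of 6.52, from 12784157 to 12784285. A ZIPIC peak of 8.75, from 12785809 to 12786219, had no partner. Another group held 2 overlapping Pita intervals, from 12759803 to 12760057 at 13.5 and from 12759969 to 12760746 at 21.3. Both overlapped the same ZIPIC peak of 7.43, from 12760004 to 12760710, and a Pita peak of 6.84, from 12759131 to 12759329, stood just below. The last Pita peak, from 12770445 to 12770661, was isolated and weak at 5.61. Of the 17 separate stretches of Pita signal in the bithorax window, 5 followed the one before within 1 kb, against 2 of 12 in the Antennapedia window. Counting Pita peaks within 1 kb once left 12 of 18 and 10 of 12 in these windows, against 554 of 625 over 3R. No interval was taken for these shares. Whether such neighbours are separate binding sites or parts of the same enriched stretch was not tested.

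**Figure D2:**
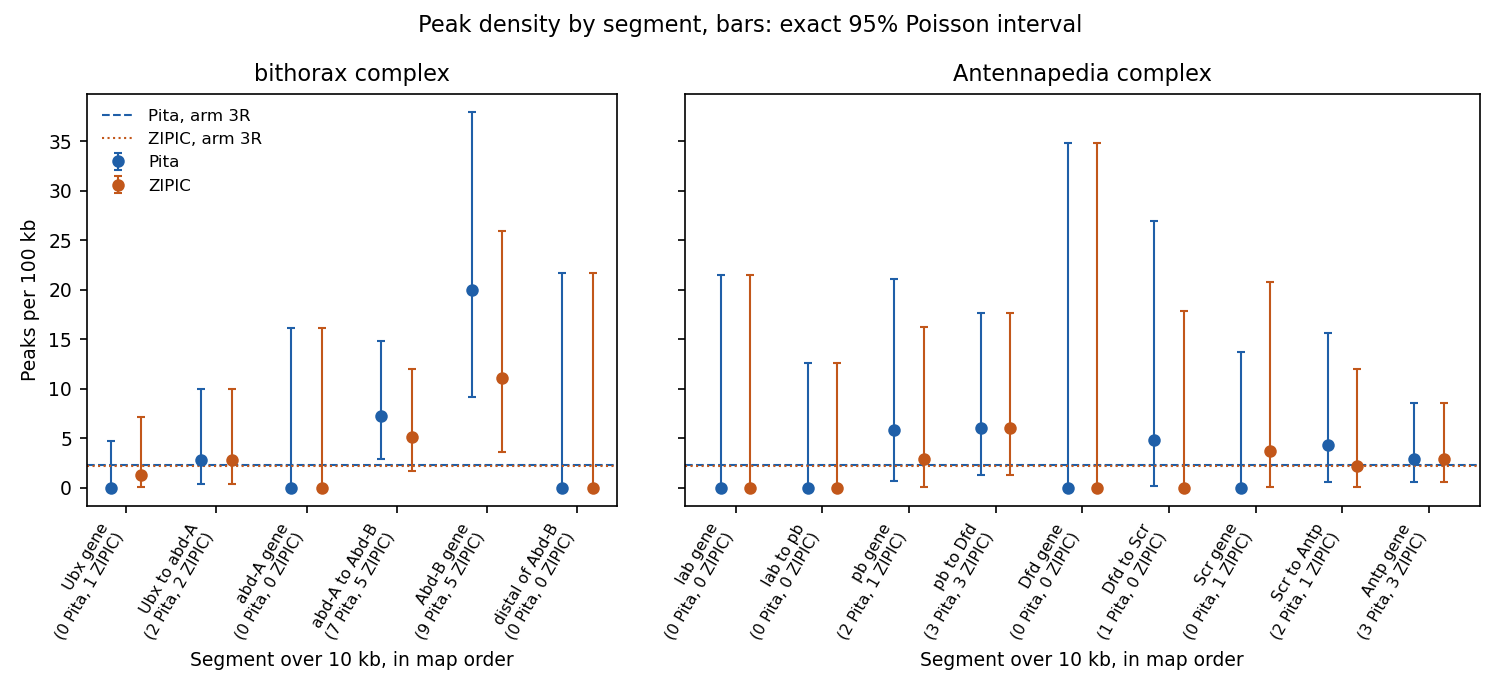
Peaks per 100 kb in each Hox gene and each interval between Hox genes over 10 kb long, placed by the middle of the peak, with exact 95% Poisson intervals (counting error only) and the level of the whole arm 3R as lines. The interval of the Pita value lies above the arm in Abd-B (20.0 per 100 kb) and between abd-A and Abd-B (7.20), and that of ZIPIC in Abd-B only (11.1).

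In the Antennapedia complex the genes of the head came first. lab, which acts in the most anterior head segments, held no peak in its 17.2 kb. The strongest Pita peak of this complex, from 2485654 to 2485963, lay 1186 bp outside it with a −log10 p of 61.0 and rank 175 and had no ZIPIC partner. It overlapped an end of agt, which encodes a DNA alkyltransferase, and was 490 bp from an end of twr, so it belonged to the genes next to the Hox complex by position. The nearest ZIPIC peak to lab lay outside the window at 14329 bp. The 29.2 kb between lab and pb, with a row of cuticle protein genes (Ccp84A), held no peak. The exact Poisson interval of a count of 0 reaches 12.6 peaks per 100 kb there.

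pb, which directs the formation of mouthparts, held 2 Pita peaks and 1 ZIPIC peak near its lower end. Pita from 2534663 to 2534886 had a −log10 p of 52.7 and rank 283, and ZIPIC from 2534693 to 2534853 had 11.4 and rank 903. Their middles were 1.5 bp apart. A second Pita peak, from 2535383 to 2535697, stood 0.496 kb farther with 23.5.

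The interval from pb to Dfd holds homeobox genes that no longer act as Hox genes. bcd encodes the morphogen of the anterior egg, and a Pita and ZIPIC pair lay at its end. Pita from 2585311 to 2585501 had 37.6 at a distance of 123 bp, and ZIPIC from 2585130 to 2585490 overlapped bcd with 11.9 and rank 849. zen, which patterns dorsal tissue, and its neighbour zen2 had no peak within 1 kb: the nearest Pita peak was 5395 and 15453 bp away and the nearest ZIPIC peak 5214 and 15272 bp. In the long noncoding RNA gene CR42721 Pita from 2594065 to 2594261 had 20.0 and ZIPIC from 2594099 to 2594243 had 4.57. A Pita peak of 6.66, from 2605948 to 2606114, lay 498 bp beyond the other end of CR42721.

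Dfd and Scr, which specify the posterior head and the anterior thorax, overlapped 1 ZIPIC peak each and no Pita peak. They span 10.6 and 26.9 kb, and for both proteins the Poisson intervals of their densities included the level of the arm. A weak ZIPIC peak from 2617238 to 2617635 overlapped the lower end of Dfd with a −log10 p of 5.11. Between Dfd and Scr the only peak was of Pita, from 2632427 to 2632656, with 8.38, and mir-10, a microRNA gene of this interval, was 2572 bp from it. Scr held 1 ZIPIC peak of 5.93, from 2674292 to 2674646, 1057 bp from its upper end. Above Scr, Pita peaks without ZIPIC stood from 2680061 to 2680247 with 37.8 and from 2696668 to 2696844 with 41.2. The latter was the nearest Pita peak to ftz, a homeobox gene of segmentation, at 4702 bp.

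Antp, which specifies the thorax and its legs, is the longest Hox gene at 103 kb and held 3 peaks of each protein, all in its lower part. Pita from 2738492 to 2738956 had 57.8 and rank 212 and ZIPIC from 2738531 to 2738982 had 6.18. A Pita peak of 23.8 without partner, from 2738012 to 2738195, lay 0.296 kb below. The other pair was weaker, with Pita from 2733902 to 2734053 at 12.0 and ZIPIC from 2733905 to 2734033 at 5.91. ZIPIC alone stood from 2756171 to 2756468 with 7.69. Just outside the gene, ZIPIC had its strongest peak of this complex, from 2826326 to 2826959, with 15.4 and rank 609. It lay 1376 bp from the upper end of Antp, 69.9 kb above the next site of the window, and had no Pita partner. At the lower end a ZIPIC peak of 4.09, from 2718865 to 2719316, was the weakest of the 23 and touched an end of the long noncoding RNA CR45559. The strong ZIPIC peak above Antp overlapped no coding gene and lay inside the long noncoding RNA gene CR45899, 112 bp from an end of it.

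The density of Pita peaks in the bithorax window was 5.37 per 100 kb (interval 3.18 to 8.49), 2.40 times the 2.24 of the whole arm 3R (625 peaks). In the Antennapedia window it was 3.43 (1.77 to 5.99), 1.53 times the arm. For ZIPIC the values were 3.88 (2.07 to 6.64) and 2.86 (1.37 to 5.25) against 2.14 over the arm (596 peaks), or 1.82 and 1.34 times. The interval of the Pita value in the bithorax window lay above the arm, and the other 3 intervals included it. When peaks of the same list within 1 kb were counted once, the bithorax window kept 12 Pita peaks and 1.80 times the density of the arm, with an interval of 0.932 to 3.15 times that no longer lay above it. Among the 1000 strongest peaks of each list the Pita value of the Antennapedia window was 2.46 times the arm (1.06 to 4.85) and the ZIPIC value of the bithorax window was 0.724 times (0.0877 to 2.62), below the arm. With windows cut to the Hox genes the latter was 1.93 times (1.03 to 3.30). The complexes themselves differed by less than the counting error. The density in the bithorax window over that in the Antennapedia window was 1.57 for Pita (exact conditional binomial interval 0.714 to 3.57) and 1.36 for ZIPIC (0.550 to 3.46).

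Counts in equal windows along the whole arm put these numbers in place. When 3R was divided from its start into 83 windows of 335 kb, Pita had a median of 7 peaks (range 1 to 15) and 0% of the windows reached the 18 of the bithorax complex. ZIPIC also had a median of 7 (range 1 to 15), and 4.82% of windows reached its 13. Of the 79 windows of 350 kb, 12.7% reached the 12 Pita peaks of the Antennapedia complex and 22.8% its 10 ZIPIC peaks. These windows cover the whole arm, so parts of the complexes themselves are counted among them. The shares also depend on where the windows begin. When a window of 335 kb was begun at each peak, 1 other place on the arm reached the 18 Pita peaks, with up to 20, and 13 separate places reached the 13 ZIPIC peaks. With 350 kb, 22 places reached the 12 Pita peaks and 33 the 10 ZIPIC peaks of the Antennapedia window.

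**Figure D3:**
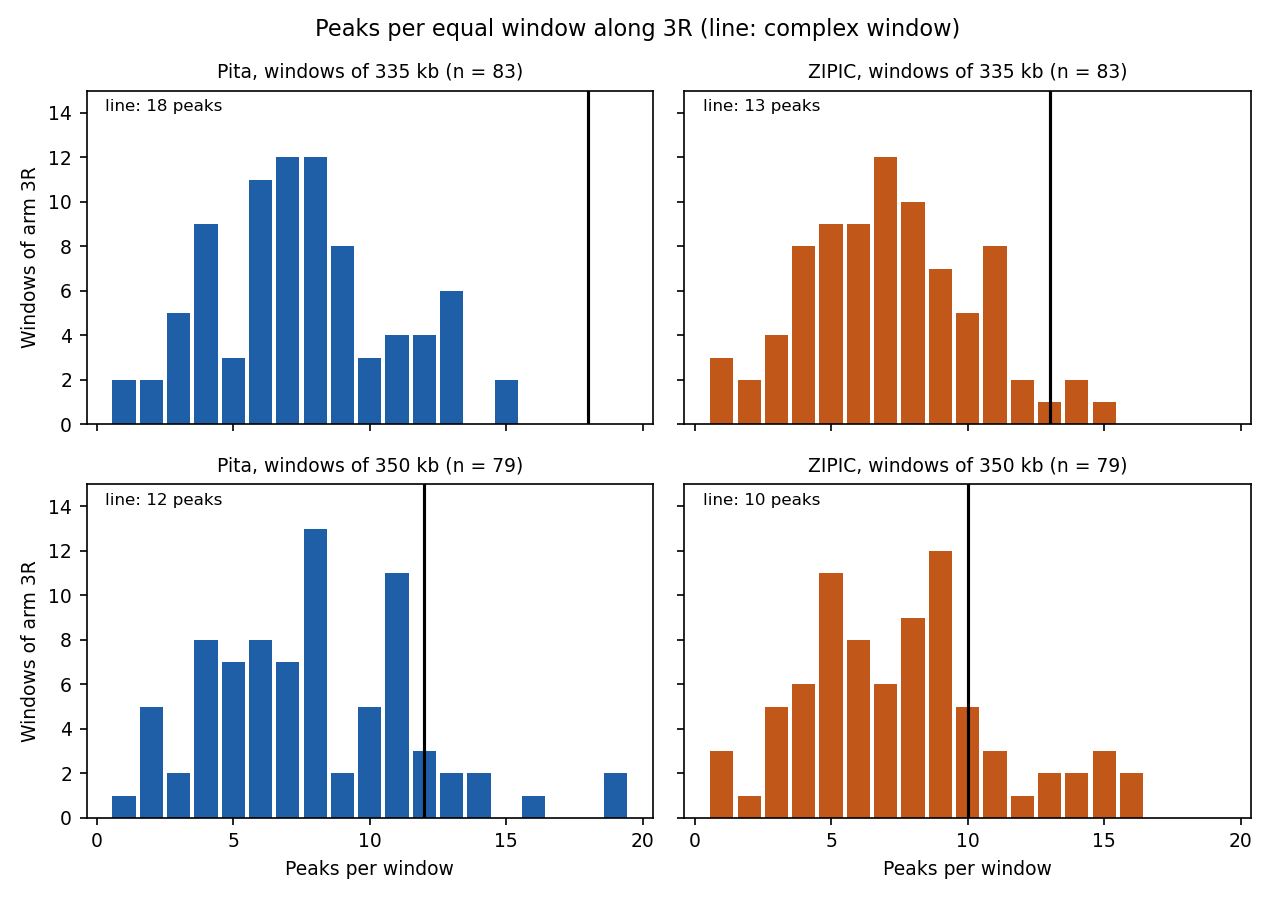
Number of windows of arm 3R (vertical axis) by the number of peaks they held (horizontal axis), for windows as long as the bithorax complex (335 kb, upper row) and the Antennapedia complex (350 kb, lower row). The black lines mark the complexes themselves, at 18 and 13 peaks in the upper row and 12 and 10 in the lower row.

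Strength set the proteins apart within these loci. Strength is −log10 p over input, which grows with depth and width as well as with enrichment, so it was read only against the other peaks of the same list. The 30 Pita peaks had a median of 23.2 (range 4.56 to 75.8), against 13.2 over the Pita list and 16.3 over 3R. Above the list median were 20 of 30 (66.7%, Clopper-Pearson interval 47.2 to 82.7, against 50% over the list by construction), and 6 of 30 were in the top 10% (20%, interval 7.71 to 38.6, against 10% over the list). The 23 ZIPIC peaks had a median of 5.93 (range 4.09 to 18.4), against 7.49 over the ZIPIC list and 8.40 over 3R. Of these, 8 of 23 exceeded the list median (34.8%, interval 16.4 to 57.3, against 50%), and 0 of 23 were in the top 10%, which allows a share of up to 14.8% by the exact binomial limit. Pita peaks of the Hox complexes thus lay mostly in the upper part of their list and ZIPIC peaks mostly in the lower part, but all 4 intervals included the share of the list.

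The same order held in each complex. The Pita median was 21.0 in the bithorax and 30.7 in the Antennapedia window, and the ZIPIC median 5.64 and 6.05. Of the Pita peaks, 11 of 18 and 9 of 12 exceeded the list median, and of the ZIPIC peaks 4 of 13 and 4 of 10. Peaks with a p of 1e-05 or more numbered 1 of 30 for Pita (3.33%, interval 0.0844 to 17.2, against 13.3% of the list) and 7 of 23 for ZIPIC (30.4%, interval 13.2 to 52.9, against 22.4%), and both intervals included the share of the list. The median Pita width was below that of the arm, at 249.5 bp in the bithorax and 194 bp in the Antennapedia window against 274 bp over 3R. The ZIPIC medians were 432 and 358 bp against 369 bp.

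**Figure D4:**
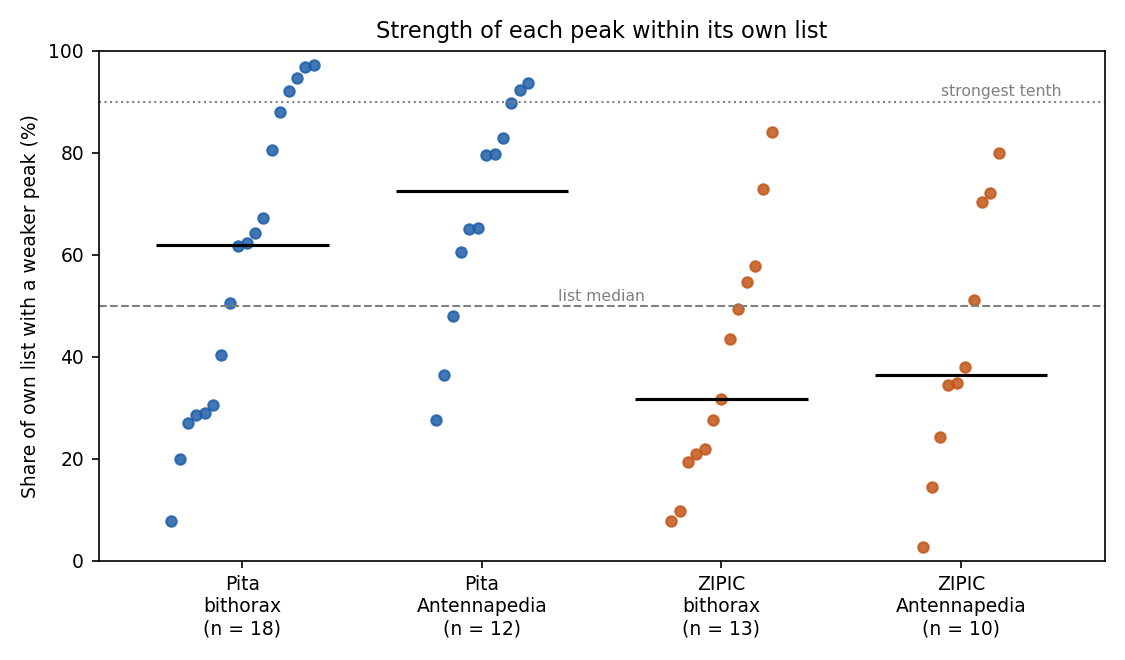
Each point is 1 peak of the Hox complexes, placed by the share of its own list (vertical axis, %) that was weaker, with black bars at the medians, the dashed line at the list median and the dotted line at the top 10%. Pita has 4 points of 18 and 2 of 12 above the dotted line, and the highest ZIPIC point stands at 84.2%.

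The proteins met at part of the sites. ZIPIC shared at least 1 bp with 15 of the 30 Pita peaks (50%, interval 31.3 to 68.7), close to the 48.9% over the whole Pita list. Pita in turn met 14 of the 23 ZIPIC peaks (60.9%, interval 38.5 to 80.3), against 43.9% over the ZIPIC list and 54.0% over 3R. By complex the shares were 10 of 18 and 5 of 12 for Pita and 9 of 13 and 5 of 10 for ZIPIC. Merged into separate sites, the complexes held 38, of which 14 carried both proteins, 15 only Pita and 9 only ZIPIC. The overlap in these loci did not stand apart from the rest of the arm beyond its counting error.

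Pita peaks with a ZIPIC partner were the stronger ones. Their median −log10 p was 38.4, against 8.38 for the 15 Pita peaks alone, and over the whole list the medians were 17.1 and 10.7. The gap was wide in the bithorax complex (43.7 against 6.86) and narrower in the Antennapedia complex (37.6 against 23.8). For ZIPIC the medians were 6.04 with and 5.93 without a Pita partner, whereas over the ZIPIC list they were 12.2 and 6.00. The ZIPIC medians of the Hox complexes were thus close, though they rest on 14 and 9 peaks. The strongest of these ZIPIC peaks had 18.4, 12.1, 11.9 and 11.4 beside Pita and 15.4 without it.

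Within the 15 overlapping pairs the Pita peak stood higher in its list than its partner in 14 (93.3%), whereas over all 1353 such pairs it did so in 35%. The median Pita peak of these pairs was stronger than 80.5% of its list and the median ZIPIC peak stronger than 37.9%, against 56.8% and 73.4% over all pairs. The exception was the weak pair near the upper end of Abd-B from 12795781, where the percentages were 40.3 and 54.7. The 15 pairs involve 14 ZIPIC peaks, since 2 Pita intervals share a partner. The middles were a median of 21.5 bp apart (range 0.5 to 427), and 11 of 15 were within 100 bp (73.3%). Over all pairs the median was 37.5 bp and the share within 100 bp 68.2%, so the spacing was near that of the lists. The shared stretch had a median of 228 bp (range 54 to 707).

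**Figure D5:**
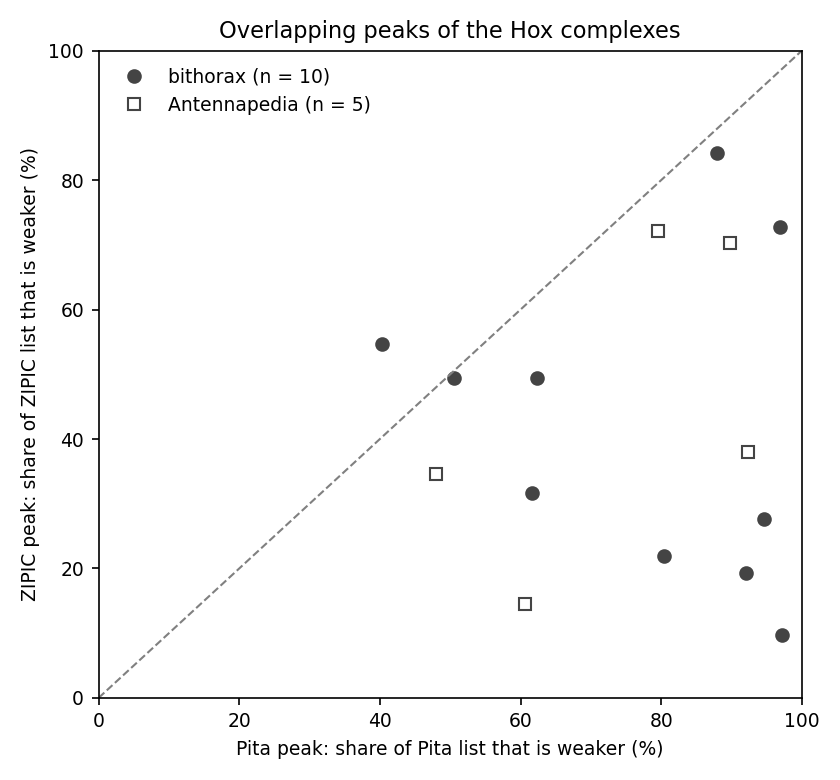
The 15 overlapping pairs, with the share of the Pita list weaker than the Pita peak on the horizontal axis and the share of the ZIPIC list weaker than the ZIPIC peak on the vertical axis, both in %. Below the dashed line of equal standing lie 14 pairs, and the bithorax pair farthest from it has 97.2% for Pita and 9.71% for ZIPIC.

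Across the arm most peaks of both proteins lay at gene ends, and in the Hox complexes few did. The table used gives no strand, so the distance is to whichever end of a gene is nearer, start or stop, and start sites inside a gene are not seen. Of the 30 Pita peaks 5 lay within 1 kb of an end of any gene (16.7%, interval 5.64 to 34.7), against 74.6% of the Pita peaks of 3R. For ZIPIC it was 4 of 23 (17.4%, interval 4.95 to 38.8), against 77.9%. Both intervals lay below the share of the arm. With coding genes alone the counts were 2 of 30 and 2 of 23, against 71.8% and 75.7% over the arm. The median distance was 3421 bp for Pita and 3501 bp for ZIPIC in the complexes, and 9 and 0 bp over the arm. In the bithorax window 2 of 18 Pita and 0 of 13 ZIPIC peaks were within 1 kb, and in the Antennapedia window 3 of 12 and 4 of 10. The bithorax window holds 7.16 genes per 100 kb, the Antennapedia window 14.3 and the arm 15.2, and the part of gene density in this difference was not tested.

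The ends of the Hox genes themselves were nearly free of peaks. Pita had a peak within 1 kb of an end of 0 of 8 Hox genes, against 18.8% of the 4226 genes of 3R and 20.4% of coding genes. ZIPIC had 1 of 8, at Dfd, against 19.8% and 22%. With 8 genes such counts are close to what those shares give, so they do not set the Hox genes apart. The nearest Pita peak lay at 1141 bp for pb, 1186 bp for lab, 1934 bp for Abd-B, 4277 bp for Dfd, 4358 bp for Scr, 4721 bp for abd-A, 11927 bp for Antp and 14220 bp for Ubx. The nearest ZIPIC peak lay at 0 bp for Dfd, 1057 bp for Scr, 1171 bp for pb, 1376 bp for Antp, 1674 bp for Abd-B, 8259 bp for abd-A, 14329 bp for lab and 29087 bp for Ubx. Ubx was farthest from both proteins, and pb and Abd-B were near both. Within 2 kb the counts rose to 3 of 8 for Pita and 5 of 8 for ZIPIC, against 24.0% and 24.6% of the genes of 3R.

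Peaks inside genes gave a different picture. Pita had a peak inside 3 of 8 Hox genes (pb, Antp and Abd-B), against 12.5% of the genes of 3R, and ZIPIC inside 6 of 8, against 14%. Hox genes are long, and a long gene has more room for a peak. Per length the 8 Hox genes, 337.5 kb together, held 4.15 Pita and 3.56 ZIPIC peaks per 100 kb. Of the 14 Pita peaks behind the first value 9 were in Abd-B. A comparison list of 12 other homeobox genes of 3R (hth, pros, E5, ems, tin, bap, lbl, lbe, C15, slou, btn and Dr) held 1.05 Pita and 3.50 ZIPIC peaks per 100 kb over 285.9 kb. Within 1 kb of an end Pita had a peak at 1 of these 12, btn, and ZIPIC at 5 (E5, lbl, lbe, btn and Dr). ZIPIC inside the Hox genes was thus near the level of other homeobox genes, with 5 of its 12 peaks in Abd-B. The Pita value was higher, with most of its peaks in Abd-B. It is set against only 3 Pita peaks in the comparison list, and no interval was taken.

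The other genes of the windows numbered 21 in the bithorax and 45 in the Antennapedia window. Over 3R, 18.8% (Pita) and 19.8% (ZIPIC) of the genes had a peak within 1 kb of an end. No interval was taken for the counts that follow, so they are not read as a difference from the arm. In the bithorax window Pita had such a peak at 2, iab8 and CR43617, and ZIPIC at 0. In the Antennapedia window Pita had a peak within 1 kb of 5 (agt, twr, bcd, CR42721 and Taf1) and ZIPIC of 4 (bcd, CR45559, CR45899 and Taf1). The peaks at Taf1, which encodes a general transcription factor, lay outside the window. Of the 38 noncoding genes 3 held a Pita peak (7.89%) and 5 a ZIPIC peak (13.2%), near the shares of the arm. The long iab8, 92116 bp, held 6 Pita and 5 ZIPIC peaks, and bxd, 31065 bp, held 1 of each. Of the 28 other coding genes 4 held a peak of each protein (14.3% each). Among them MSAmiP, which overlaps iab8, shared 3 of each with it, and CG46458 shared the 3 of each that lie in Antp.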

How the data were processed

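ChIP-seq of Pita and of ZIPIC in S2 cells gave 1 peak list per protein (1 library each), called over 1 input library. The authors aligned reads to dm3 with Bowtie and used MACS and PeakRanger with a stated p threshold of 1e-05. The entries of the deposited lists name PeakRanger, and 367 Pita and 682 ZIPIC peaks have a p of 1e-05 or more. The submitters' processing notes also name FastQC, SAMtools and the build hg19. Tool versions were not stated in these sources. Deposited lists hold each interval, its p-value and its FDR. Strength was −log10 of the deposited p-value, and starts were printed from 1. Reads behind a peak are unknown.

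Members and gene lists were chosen with earlier results of these data known. Named were every peak in the windows, the 8 Hox genes, other window genes with a peak inside or within 1 kb, preset homeobox and noncoding genes, and 12 other homeobox genes of 3R. Gene ends came from RefSeq (Release 6 annotation) moved by 4174278 bp to dm3. With this shift 74.6% of Pita peaks of 3R lay within 1 kb of a gene end, without it 37.5%. Distances to gene starts had been planned, but the table has no strand, so either end was used. Arm length was taken to the last peak or gene, 27894.2 kb. Intervals are exact at 95% (Poisson, Clopper-Pearson, conditional binomial). Only the Poisson intervals and the overlap calls were tested on simulated data. Alternatives changed the p threshold, windows, overlap and distance. The tools were pandas 2.3.3, NumPy 2.4.6, matplotlib 3.10.9 and SciPy 1.17.1 under Python 3.11.15.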

Additional observations from a re-analysis of the deposited data

How the results depend on the processing

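No paired analysis was possible because each protein has 1 library, and no replicate could be left out for the same reason. Of 91 alternative values 82 were scored as unchanged and 9 were not. Unchanged meant within 1.5 times the reported count or inside the counting interval of the reported value. For the median distances and the median offset it meant inside the range of single values, which a median can hardly leave. Turns of direction were not scored. Some ZIPIC densities of the bithorax window did turn, against the arm and against the Antennapedia window. Among the 1000 strongest peaks of each list the bithorax window held 8 Pita and 2 ZIPIC peaks (0.724 times the ZIPIC density of the arm) and the Antennapedia window 8 and 3. There the Pita density of the Antennapedia window was 2.46 times that of the arm, with an interval of 1.06 to 4.85, and the ratio of bithorax to Antennapedia density was 1.04 for Pita and 0.696 for ZIPIC, the latter with an interval of 0.0582 to 6.08. With p under 1e-05, 8 ZIPIC peaks were left in the bithorax window and the ratio for ZIPIC was 1.04. With windows cut to the Hox genes the ZIPIC density in the bithorax window was 1.93 times that of the arm (1.03 to 3.30). Hox genes with a peak numbered 3 for Pita and 5 for ZIPIC within 2 kb of an end, and 3 and 6 anywhere in the gene. Overlap shares moved to 36.7% for Pita and 47.8% for ZIPIC when middles had to lie within 100 bp. Counting peaks within 1 kb once, the density ratio for the 1000 strongest peaks and the windows begun at each peak were added after seeing the data. The causes of these changes were not tested. The reads behind a peak are unknown, the ZIPIC library had more unique reads than the Pita library by the study's supplement, and the p threshold of the lists limits what can be said of places without a peak.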
